A study of Saccharomyces cerevisiae with 8 samples.

Results

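The genes described here are 9 genes of budding yeast that act in mitosis and at its end: *CDC20*, *CDC5*, *SWI5*, *BUD4*, *BUD8*, *ALK1*, *HST3*, *DBF2* and *MOB1*. They were taken as all probe sets of the array whose annotation lists 1 gene and whose current symbol is one of these names, which gave 14 probe sets of 9335 and 9 genes of 5656. *BUD4* had 6 of the 14 probe sets and each other gene had 1. RNA came from *Saccharomyces cerevisiae* cultures of 1 strain, known by a number and without a stated genotype, grown in YPD to mid-log phase. The gentamicin group (arrays 5 to 8, n = 4) had been acclimated to the drug and carried it throughout, at 500 µg/ml per the sample labels, whereas the series' design text gives milligrams. The control group (arrays 1 to 4, n = 4) had no drug. Gentamicin is an aminoglycoside antibiotic that binds ribosomal RNA, and the comparison asked which transcripts differ in cells grown with it. The labels do not say whether the 4 samples of a group came from separate cultures. The p-values therefore set a group difference against the spread between these samples, which may not be that between cultures.

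As background, many budding yeast genes are transcribed once per cell cycle. A group named after the mitotic cyclin gene *CLB2* is switched on from G2 to M phase by Mcm1 together with the forkhead factor Fkh2 and the coactivator Ndd1. Its products drive anaphase, cytokinesis and the choice of the next bud site, and one of them, Swi5, then switches on genes of the passage from M to G1. The mitotic exit network, a kinase cascade that ends in Dbf2 bound to Mob1, releases the phosphatase Cdc14 and closes mitosis. In RNA from whole cultures, fewer cells in mitosis and less transcript per mitotic cell cannot be told apart.

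Signals are in arbitrary units on a linear scale, made by the authors with MAS5 and scaled so that every array had nearly the same trimmed mean. The median of all probe sets was 330 ± 7.06 on the gentamicin arrays and 389 ± 7.16 on the control arrays (SD, n = 4 each), a difference with the smallest p that 4 against 4 arrays can give (two-sided exact permutation p = 0.0286, adjusted over 3 array measures 0.0429). Log2 signals of the tested genes also spread more widely, with an interquartile range of 2.16 ± 0.0319 with gentamicin and 1.91 ± 0.0301 in controls (same exact p and adjusted p). Over the 4524 tested genes the median log2 difference, gentamicin minus control, was -0.12. Small decreases of single genes are therefore given below also under other scalings. The ratio of 3′ to 5′ *ACT1* signal was 1.43 ± 0.0881 with gentamicin and 1.38 ± 0.107 in controls (exact permutation p = 0.486). Markers of mating type moved with the groups. All 4 alpha-cell markers were called lower under each scaling, with a median log2 difference of -1.45: *MF(ALPHA)2* by 7.25-fold (441 ± 34.6 with gentamicin and 3207 ± 398 in controls), *SAG1* by 3.24-fold, *STE3* by 2.30-fold and *MF(ALPHA)1* by 1.58-fold (limma adjusted p from 3.13e-07 to 3.73e-05). Of 6 a-cell markers, *MFA1* alone was tested, and it had 164 ± 56.0 with gentamicin and 727 ± 89.7 in controls (limma adjusted p = 8.07e-05). The *MFA1* probe set is, by its name, shared between similar sequences. *BAR1* (126 ± 20.9 and 195 ± 6.17), *MFA2* (157 ± 17.4 and 183 ± 8.48) and *STE6* (134 ± 20.9 and 131 ± 48.3) were below the filter, and *STE2* and *AGA2* were no brighter than the controls for transcripts that yeast lacks. The part of these markers in the differences of the 9 genes was not tested.

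With gentamicin, *CDC20* transcript was reduced to less than its level on any control array, and none of the other 8 genes was lower by more than 1.42-fold. *CDC20* was 2.23-fold lower, *ALK1* 1.42-fold, *BUD8* 1.35-fold, *CDC5* 1.24-fold and *BUD4* 1.23-fold, all called lower (limma, Benjamini-Hochberg adjusted p under 0.05 over all tested genes). *MOB1* was tested and not called. *SWI5*, *DBF2* and *HST3* had mean signals in the lowest 20% of genes, under a geometric mean of 214, and did not enter the test. So 5 of 6 tested genes were called lower and 0 higher, by adjusted p and equally by unadjusted p under 0.05. Of all tested genes, 31.3% were called lower and 15.5% higher. The count depended on scaling: with quantile normalization, 1 of the 6 was called lower (19.8% of all tested genes), and with aligned array medians 2 of 6 (17.7%). At an adjusted p under 0.01, 2 of the 6 were called lower (20.2%). *CDC20* was called under each, and *ALK1* under aligned medians. The 4 gentamicin signals lay below all 4 control signals for *CDC20*, *CDC5*, *BUD4* and *ALK1* among the tested genes, against 29.6% of all tested genes. The same held for *DBF2*, which was below the filter and so outside that share.

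**Figure D1:**
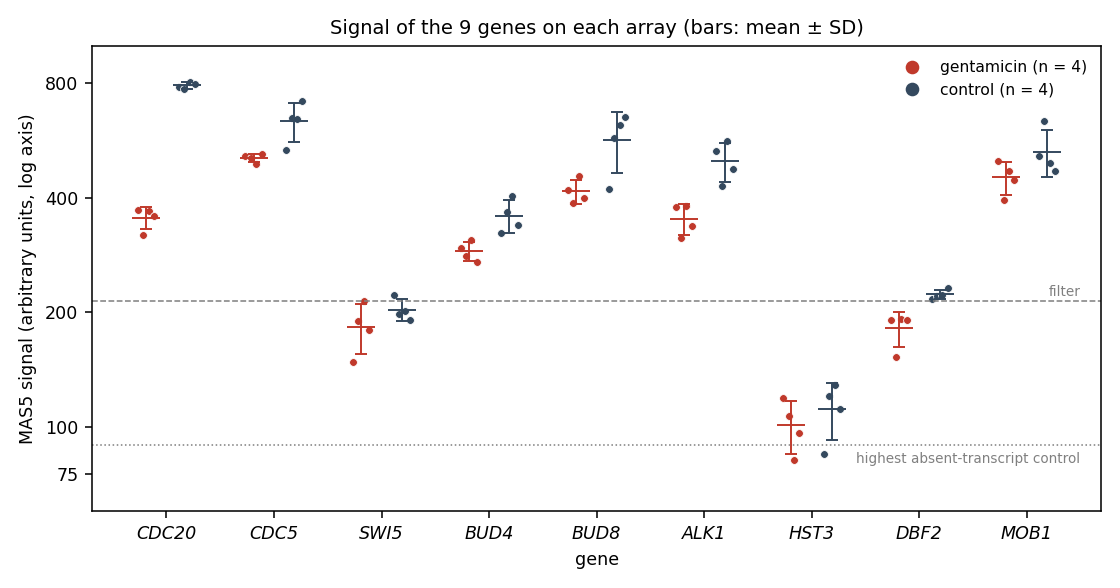
Signal of each of the 9 genes (x axis; for BUD4 its brightest probe set) on the 4 gentamicin arrays (red) and the 4 control arrays (blue), on a log axis in arbitrary units, with mean and SD; levels of different genes are not comparable, because each has its own probes. The 4 CDC20 signals with gentamicin lie between 319 and 371, far below the control signals of 770 to 803, whereas the groups of SWI5, BUD8, HST3 and MOB1 overlap.

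Cdc20 activates the anaphase-promoting complex, the ubiquitin ligase whose work starts anaphase. The signals of *CDC20* were 371, 319, 369 and 358 on gentamicin arrays 5 to 8, against 781, 770, 803 and 797 on control arrays 1 to 4. The groups lay far apart, and the spread within each was narrow, with means of 354 ± 24.1 and 788 ± 15.2 (SD, n = 4 each). The log2 difference was -1.16 ± 0.07 (SE; limma adjusted p = 8.51e-06), or 2.23-fold lower with a 95% confidence interval of 1.98 to 2.50. It was the rank 69 decrease of 4524 tested genes, so 1.53% of tested genes were as low or lower. With quantile normalization the log2 difference was -0.96 (adjusted p = 3.73e-05) and with aligned array medians -1.01 (adjusted p = 1.43e-05).

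*CDC5* encodes the polo kinase of yeast, which acts in anaphase, mitotic exit and cytokinesis. Its signals were 514, 509, 489 and 520 with gentamicin, against 535, 646, 645 and 715 in controls. All gentamicin signals were lower, but control 1 stood close to them, and the controls spread more widely (SD 13.3 with gentamicin and 74.6 in controls). The log2 difference was -0.31 ± 0.09 (SE; limma adjusted p = 0.0225). The call was lost with quantile normalization (log2 difference -0.11, adjusted p = 0.369) and with aligned medians (-0.17, 0.175). It was also lost on leaving out control 2, 3 or 4 or gentamicin 7 (limma adjusted p = 0.0583, 0.053, 0.0588 and 0.0527).

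Among the other genes of the anaphase-promoting complex, its activators and an inhibitor, 11 of 15 passed the filter. Of these 11, 2 were called lower and none higher, a smaller share than the 31.3% of all tested genes called lower. Their median log2 difference was -0.20 against -0.12 over all tested genes. The second activator, *CDH1*, which takes over from Cdc20 late in mitosis, had 229 ± 13.5 with gentamicin and 296 ± 27.1 in controls (log2 difference -0.36, limma adjusted p = 0.0119). The subunit gene *MND2* had 321 ± 13.7 and 375 ± 9.05 (-0.23, adjusted p = 0.0287), a call lost without control 2 or 3 or gentamicin 6 or 8 (adjusted p up to 0.075). Neither was called under the other scalings, where 0 of the 11 were (19.8% of all tested genes were called lower with quantile normalization and 17.7% with aligned medians). Of 11 spindle checkpoint, passenger and cohesin control genes, which restrain or carry out what Cdc20 triggers, 5 were tested. Of these, 2 were called lower and 0 higher, against 31.3% of all tested genes called lower, with a median of -0.25. Under either other scaling 1 was called lower (19.8% of all tested genes with quantile normalization and 17.7% with aligned medians). *MAD1*, of the checkpoint that inhibits Cdc20, fell to 208 ± 25.6 with gentamicin, against 338 ± 29.5 in controls (log2 difference -0.70, limma adjusted p = 0.000939), and remained called under both scalings. *BIR1*, of the chromosomal passenger complex, had 300.0 ± 47.5 and 384 ± 8.20 (-0.37, adjusted p = 0.0284), lost under both scalings and without any of the 4 controls or gentamicin 8 (adjusted p up to 0.0668). *SLI15* was below the filter, which uses the mean over both groups, with 129 ± 15.8 and 342 ± 20.4 (log2 difference -1.41). *PDS1*, also untested, had 96.0 ± 13.6 and 165 ± 28.0 (-0.78). Of the untested genes of this list, *BUB1* alone was not lower (50.0 ± 4.76 and 48.9 ± 7.22).

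*DBF2* and *MOB1* encode the kinase and its binding partner at the end of the mitotic exit network. *DBF2* gave signals of 191, 153, 192 and 191 with gentamicin, against 217, 221, 222 and 231 in controls. The groups did not overlap, and gentamicin 6 lay well below the other 3 arrays of its group. *DBF2* was below the filter. In a fit of all 5656 genes without a filter its log2 difference was -0.30 ± 0.10 (SE; limma adjusted p = 0.0384, where 29.6% of genes were called lower), but without gentamicin 6 it was -0.22 (adjusted p = 0.0663), and leaving out gentamicin 8 or any of the 4 controls gave adjusted p from 0.0535 to 0.0869. *MOB1*, whose probe set is, by its name, shared between similar sequences, had 500, 393, 469 and 444 with gentamicin and 515, 636, 492 and 470 in controls. The groups overlapped, since gentamicin 5 exceeded controls 3 and 4. Its log2 difference was -0.22 with a 95% confidence interval of -0.48 to 0.04 (limma adjusted p = 0.147), and it was called with array weights alone among the alternatives (-0.31, adjusted p = 0.0468, where 37.4% of tested genes were called lower).

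Most tested genes of a wider mitotic exit list were called lower, but the list holds antagonists of exit as well as genes that promote it. Of 16 further genes of the mitotic exit network and of the early Cdc14 release pathway known as FEAR, 10 were tested. Of these, 6 were called lower and none higher, against 31.3% of all tested genes called lower, with a median of -0.53 against -0.12. With quantile normalization 5 were called lower (19.8% of all tested genes) and with aligned medians 6 (17.7%). *CDC14*, the phosphatase that both pathways release, had 514 ± 59.7 with gentamicin and 972 ± 144 in controls, 1.88-fold lower (limma adjusted p = 0.000518). *SPO12*, a nucleolar protein of the early release pathway that also belongs to the *CLB2* cluster, was 1.77-fold lower, with 398 ± 50.1 and 702 ± 55.9 (adjusted p = 0.000294). Its relative *BNS1* had 298 ± 30.8 and 471 ± 52.1 (adjusted p = 0.00139). *AMN1*, an antagonist of the network in daughter cells, had 2645 ± 266 and 4157 ± 578 (adjusted p = 0.00141). These 4 stayed called under both scalings and without any single array. *BUB2* and *KIN4*, also antagonists of exit, were called lower too. *BUB2* had 467 ± 32.9 with gentamicin and 647 ± 67.2 in controls (limma adjusted p = 0.00331, but 0.0541 with quantile normalization). *KIN4* had 842 ± 21.9 and 1200 ± 139 (adjusted p = 0.00157) and was called under both scalings. The count of lower calls is therefore not a count of genes that promote exit. The network's switch *TEM1* (173 ± 16.9 with gentamicin and 236 ± 45.2 in controls) and the kinase *CDC15* (182 ± 36.5 and 210 ± 19.4), which acts upstream of Dbf2, were below the filter. *LTE1*, also below it, had 83.4 ± 15.8 with gentamicin and 189 ± 19.7 in controls (log2 difference -1.20, not tested).

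*SWI5* encodes the transcription factor that carries the cluster's output into G1. Its signals were 148, 190, 213 and 179 with gentamicin, against 222, 198, 201 and 191 in controls. The groups overlapped, because gentamicin 7 exceeded 3 of the controls. It was below the filter, and without a filter its log2 difference was -0.16 with a 95% confidence interval of -0.44 to 0.11 (limma adjusted p = 0.318). The sign turned with quantile normalization, to 0.04.

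Genes of the passage from M to G1, many of them Swi5 targets, went both ways. Of 14 tested genes of 16, 6 were called lower and 4 higher, against 31.3% and 15.5% of all tested genes. With quantile normalization 4 were lower and 3 higher (19.8% and 18.8% of all tested genes). With aligned medians 4 were lower and 4 higher (17.7% and 23.9%). The list median of -0.07 was close to the -0.12 of all tested genes. Higher were *RME1*, a repressor of meiosis, at 3201 ± 242 with gentamicin and 1898 ± 127 in controls (limma adjusted p = 7.74e-05), and *ASH1*, a repressor active in daughter cells, at 1831 ± 126 and 1191 ± 112 (adjusted p = 0.000461). *CHS1*, a chitin synthase, had 1070.0 ± 183 and 707 ± 56.9 (adjusted p = 0.0043), and *CTS1*, the chitinase of cell separation, 1.36-fold higher (adjusted p = 0.00628, but 0.0541 with quantile normalization). Lower were *SCW11*, a glucanase-like wall protein of daughter cells, at 274 ± 32.3 and 546 ± 86.2 (adjusted p = 0.000412), *PCL2*, a cyclin, at 390 ± 106 and 706 ± 65.9 (adjusted p = 0.00568), and *AMN1*, given above. *CDC6*, which loads the replicative helicase at origins, was 2.10-fold lower (adjusted p = 0.0234), a call lost with quantile normalization (0.0644) and without control 1 (0.051). *SIC1*, an inhibitor of mitotic kinase and a much studied Swi5 target, had 1276 ± 92.6 and 1311 ± 12.8 (log2 difference -0.04, adjusted p = 0.639).

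*BUD4* and *BUD8* encode marks of the next bud site. Bud4, an anillin-like protein at the bud neck, serves the axial pattern of haploid cells together with Bud3, and Bud8 marks the pole away from the birth scar. The brightest probe set of *BUD4*, by its name shared between similar sequences, gave 295, 281, 310 and 271 with gentamicin, against 322, 366, 404 and 339 in controls. The groups did not overlap, and gentamicin 7 and control 1 lay closest to each other. The log2 difference was -0.30 ± 0.10 (SE; limma adjusted p = 0.027). It was -0.07 with quantile normalization (adjusted p = 0.607) and -0.16 with aligned medians (0.198), and the call was lost without control 2 or 3 or gentamicin 6 or 8 (adjusted p from 0.0552 to 0.0743).

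The other 5 probe sets of *BUD4* showed overlapping groups. The next brightest gave 127, 211, 168 and 139 with gentamicin, against 209.8, 219, 76.5 and 249 in controls, where control 3 lay far below the rest, and its log2 difference was -0.12 (two-sided exact permutation p = 0.857). The remaining 4 had means from 9.05 to 57.0 with gentamicin and from 7.03 to 64.6 in controls, all at or under 89.5, the highest signal of 16 control probe sets for absent transcripts. Their log2 differences, from -1.30 to 0.61, have no resolved size.

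**Figure D2:**
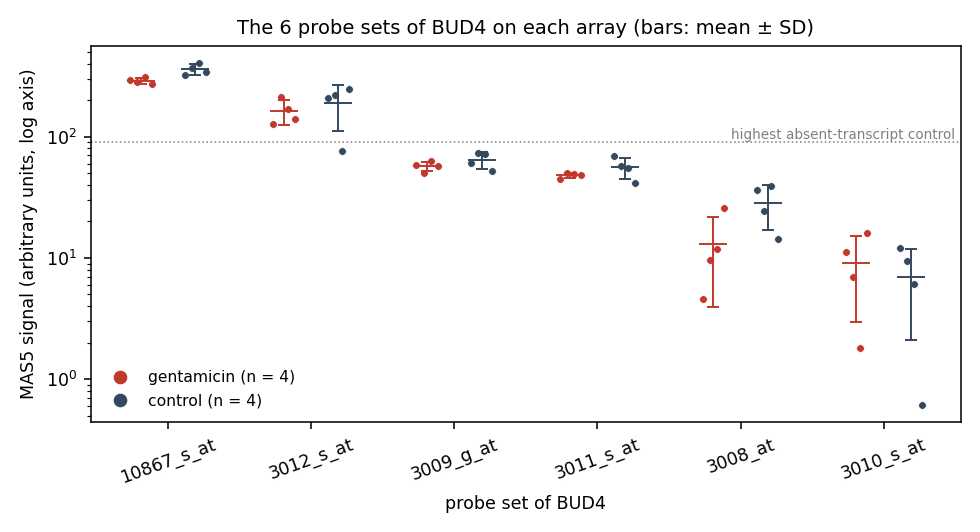
Signals of the 6 probe sets of BUD4 (x axis, by probe set name) on the 4 gentamicin arrays (red) and the 4 control arrays (blue), log axis in arbitrary units, with mean and SD (lower SD bars end at 5% of the mean at the lowest); the dotted line is the highest control for absent transcripts, 89.5. The groups are apart for the brightest probe set and overlap for the other 5, of which 4 lie under the line.

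*BUD8* had signals of 417.4, 388.1, 456.1 and 400.03 with gentamicin, against 421, 574, 619 and 653 in controls. Control 1 stood well below the other controls and inside the range of the gentamicin group. The log2 difference was -0.43 ± 0.14 (SE; limma adjusted p = 0.0278), and -0.57 without control 1 (adjusted p = 0.00144). The call was lost without control 2, 3 or 4 or gentamicin 6 or 8 (adjusted p from 0.0636 to 0.0742), with quantile normalization (-0.22, 0.227) and with aligned medians (-0.29, 0.107).

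Of 9 other genes of bud site selection, 7 were tested, 4 were called lower and none higher, against 31.3% of all tested genes called lower, with a median of -0.29 against -0.12. Under either other scaling 3 were called lower (19.8% of all tested genes with quantile normalization and 17.7% with aligned medians). *BUD3*, the partner of Bud4 and a member of the *CLB2* cluster, had 444 ± 48.6 with gentamicin and 756 ± 127 in controls, 1.69-fold lower (limma adjusted p = 0.00184). *RAX1*, which helps to anchor Bud8 and Bud9, had 252 ± 21.4 and 360.4 ± 19.3 (adjusted p = 0.00159), and *RSR1*, the GTPase of bud site choice, had 744 ± 52.1 and 1074 ± 141 (adjusted p = 0.00262). The *RSR1* probe set is, by its name, not of the unique class. *AXL2*, an axial landmark, had 277 ± 16.1 and 340.1 ± 28.2 (adjusted p = 0.0246), a call lost under both scalings and without control 2 or 3 or gentamicin 5 or 7 (adjusted p up to 0.0706). *AXL1*, the protease-like factor of haploid axial budding, had 475 ± 11.3 and 495 ± 25.9 (log2 difference -0.06, adjusted p = 0.527).

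*ALK1* encodes a kinase of the haspin family, whose animal member phosphorylates a histone in mitosis. Its signals were 377, 313, 380 and 336 with gentamicin, against 530, 430, 562 and 475 in controls. The highest gentamicin signal lay below the lowest control signal. The log2 difference was -0.50 ± 0.11 (SE), 1.42-fold lower with a 95% confidence interval of 1.19 to 1.68 (limma adjusted p = 0.00493). Without any single array it remained called, from -0.57 to -0.44. With aligned medians it was -0.36 (adjusted p = 0.0265), and with quantile normalization -0.27, not called (adjusted p = 0.104).

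*HST3* encodes a sirtuin that removes acetyl groups from newly deposited histones before the next S phase. Its signals were 119, 107, 81.7 and 96.3 with gentamicin, against 84.7, 120.1, 129 and 111 in controls. The groups overlapped, and gentamicin 7 and control 1 were no brighter than the highest of those absent-transcript controls. It was below the filter. Without a filter its log2 difference was -0.14 with a 95% confidence interval of -0.52 to 0.24 (limma adjusted p = 0.547), and the sign turned under both other scalings (0.04 with quantile normalization and 0.0083 with aligned medians).

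**Figure D3:**
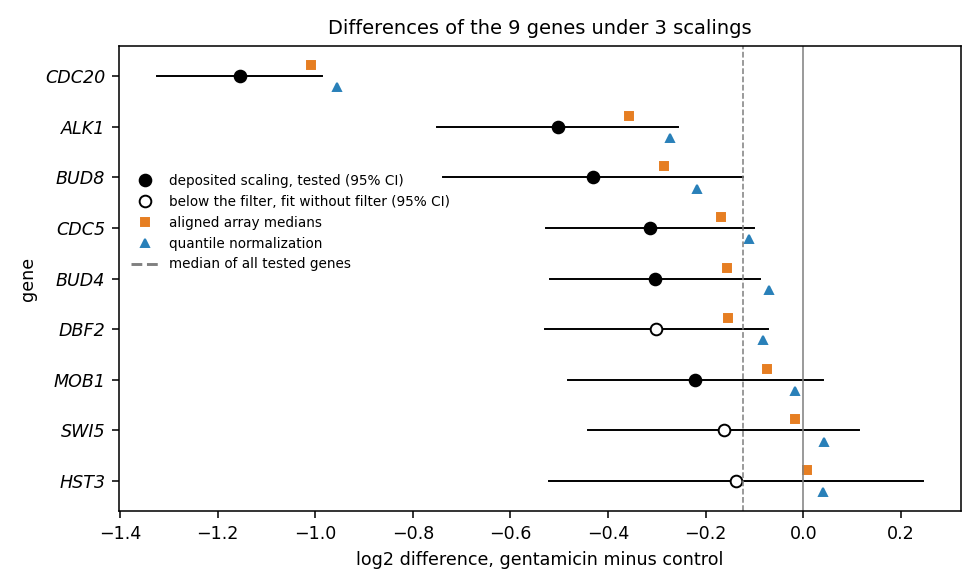
Log2 difference (x axis, gentamicin minus control) of each of the 9 genes (y axis), with 95% confidence intervals from limma for the deposited scaling; open circles are the 3 genes below the filter, from the fit without it. Orange squares and blue triangles give aligned medians and quantile normalization, and the dashed line is the median of all tested genes, -0.12. CDC20 stands at -1.16 and the next, ALK1, at -0.50, and the values of SWI5 and HST3 reach or cross 0 under another scaling.

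Several of the genes have a close relative on the array. Within-array ratios of the deposited signals were compared for 5 such pairs with two-sided exact permutation tests. A scaling factor common to an array cancels in these ratios, but the wider spread of log2 signals with gentamicin does not. *ALK2*, the other haspin-like kinase, had 220.3 ± 11.0 with gentamicin and 483 ± 81.4 in controls, a log2 difference of -1.12 (limma adjusted p = 0.000136), more negative by 0.61 than that of *ALK1* (exact p = 0.0286, the smallest possible, and 0.143 adjusted over the 5 pairs). A pair that is alone at the smallest exact p cannot pass the adjustment over 5 pairs, so the adjusted p decides nothing here. *DBF20*, the paralog of *DBF2*, had 226 ± 18.1 and 226 ± 20.5, a log2 difference of 0.01. The *DBF2* difference was lower by 0.31, which did not pass (exact p = 0.0857, adjusted 0.143). *MOB2*, which binds the kinase Cbk1 as Mob1 binds Dbf2, had 773 ± 27.7 and 1250 ± 113, a log2 difference of -0.69 (limma adjusted p = 0.000146). That was more negative by 0.47 than for *MOB1* (exact p = 0.0571, adjusted 0.143), and the probe sets of both are of shared classes. *BUD9*, which marks the opposite pole to Bud8, had 385 ± 80.8 and 353 ± 60.5 and was not called (log2 difference 0.12, limma adjusted p = 0.574; exact p against *BUD8* 0.171, adjusted 0.214). *HST4*, the sirtuin closest to *HST3*, had 218 ± 11.8 and 292 ± 27.3 (log2 difference -0.42, limma adjusted p = 0.00605), lost under both other scalings (0.169 and 0.0521). Its pair test gave exact p = 0.343.

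Of the other sirtuins, *SIR2*, the silencing deacetylase, had 447 ± 24.6 with gentamicin and 716 ± 86.5 in controls (log2 difference -0.67, limma adjusted p = 0.000622). *HST2* was higher, at 2434 ± 74.0 and 1867 ± 107 (0.38, adjusted p = 0.00109), and both calls held under the other scalings. *HST1* had 3916 ± 319 and 4641 ± 331 (-0.25, adjusted p = 0.0282), with adjusted p = 0.364 under aligned medians and a call lost without control 1 or 3 or gentamicin 6, 7 or 8 (adjusted p up to 0.0801). In the network of Cbk1 and Mob2, which acts in cell separation and polarity, 4 of 6 tested genes were called lower and none higher, against 31.3% of all tested genes called lower, with a median of -0.42 against -0.12. Under either other scaling 2 of the 6 were called lower (19.8% of all tested genes with quantile normalization and 17.7% with aligned medians). *HYM1*, a scaffold of that network, had 572 ± 77.9 and 858 ± 115 (adjusted p = 0.00477). *CBK1* (adjusted p = 0.0454) and the upstream kinase *KIC1* (0.0485) were lower by calls that were lost under both scalings. The *CBK1* call was also lost without control 1, 2 or 3 or gentamicin 7 or 8 (adjusted p up to 0.11), and the *KIC1* call without control 1, 2 or 4 or gentamicin 6, 7 or 8 (up to 0.116).

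Most tested genes of the rest of the *CLB2* cluster were lower, by calls that depended on scaling. Of 14 other genes of the cluster, 9 were tested. Of these, 7 were called lower and none higher, against 31.3% of all tested genes called lower, with a median log2 difference of -0.40 against -0.12. With quantile normalization 2 of the 9 were called lower (19.8% of all tested genes) and with aligned medians 3 (17.7%). *SPO12* and *BUD3*, given above, were called under every scaling. *IRC8*, a protein of the bud tip, had 416 ± 37.1 with gentamicin and 547 ± 33.3 in controls (limma adjusted p = 0.00542; 0.15 with quantile normalization and 0.0475 with aligned medians). *CHS2*, the chitin synthase of the division septum, had 438 ± 26.3 and 573 ± 58.1 (adjusted p = 0.00777; 0.223 and 0.0779). The cyclin gene *CLB2* itself was dim, at 106 ± 7.43 and 143 ± 9.51, and *CLB1* had 149 ± 2.85 and 149.97 ± 34.1, both below the filter.

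All 4 listed regulators of the cluster were tested: *MCM1*, *FKH2* and *NDD1*, whose products switch it on, and *FKH1*. *FKH1*, a forkhead factor related to Fkh2, had 183 ± 28.4 with gentamicin and 278 ± 34.4 in controls (log2 difference -0.61, limma adjusted p = 0.00562; 0.0568 with quantile normalization and 0.0223 with aligned medians). *FKH2* had 300.1 ± 46.0 and 386 ± 87.2 (-0.35, adjusted p = 0.126). *NDD1* had 585 ± 65.3 and 655 ± 167 (-0.14, adjusted p = 0.545), and *MCM1* had 1725 ± 318 and 1721 ± 221 (-0.01, adjusted p = 0.971). The signs of *NDD1* and *MCM1* turned under the other scalings.

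Of 17 genes of an earlier phase, transcribed from G1 to S, 15 were tested, 8 were called lower and none higher, against 31.3% of all tested genes called lower, with a median of -0.39 against -0.12. With quantile normalization 4 of the 15 were called lower (19.8% of all tested genes) and with aligned medians 5 (17.7%). The G1 cyclin genes *CLN1* and *CLN2* were not called (log2 differences -0.10 and -0.08, limma adjusted p = 0.446 and 0.54). *SMC3*, a cohesin subunit, had 191 ± 18.8 with gentamicin and 336 ± 34.7 in controls (limma adjusted p = 0.000377), and *RAD27*, a flap nuclease of replication, had 481 ± 52.7 and 792 ± 76.0 (adjusted p = 0.000528). *POL1*, of DNA polymerase alpha, had 463 ± 42.9 and 694 ± 43.0 (adjusted p = 0.000742), and *CDC45*, of the replicative helicase, had 181 ± 47.1 and 365 ± 36.7 (adjusted p = 0.0012). All 4 were called under each scaling. No test was made of a difference between lists.

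**Figure D4:**
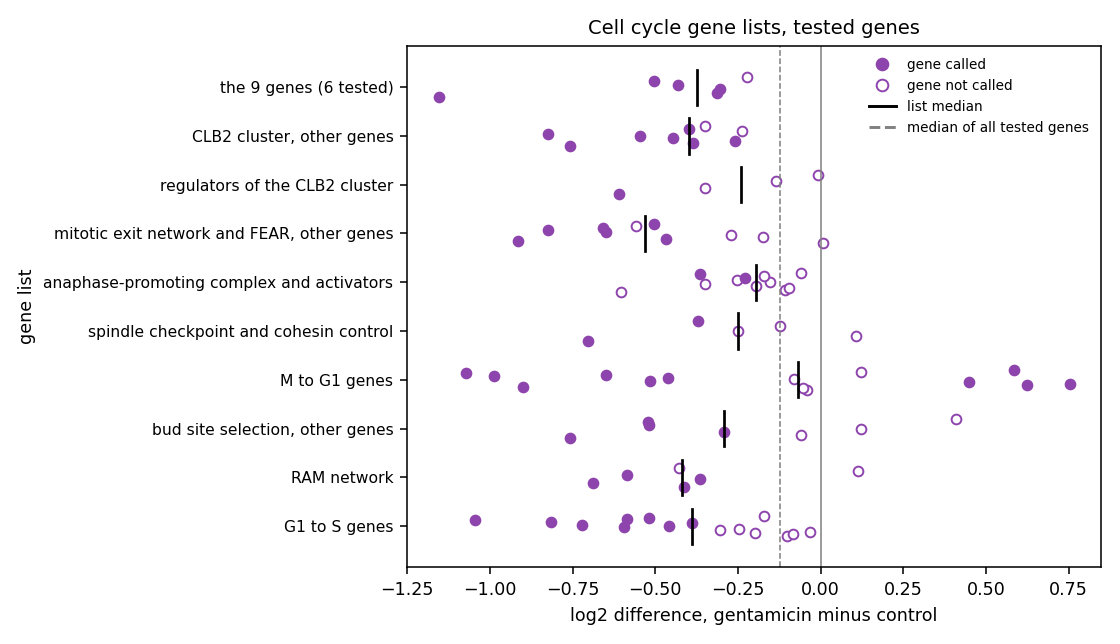
Log2 difference (x axis, gentamicin minus control, deposited scaling) of the tested genes of each cell cycle list (y axis); filled points are called genes, open points are not, the black bar is the list median and the dashed line the median of all tested genes. The medians of the CLB2 cluster (-0.40), the exit network (-0.53) and the G1 to S genes (-0.39) lie left of the dashed line, and the M to G1 genes spread to both sides.

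Among the 9 genes, *CDC20* differed from the others more than the others differed among themselves. Of the 36 pairs, the within-array ratio separated the 4 gentamicin from the 4 control arrays in 8, and these were the 8 pairs with *CDC20*. In them the log2 difference of *CDC20* was more negative by 0.65 (against *ALK1*) to 1.02 (against *HST3*). Each had the smallest possible exact permutation p of 0.0286, or 0.129 adjusted over the 36 pairs. With 4 against 4 arrays, 8 pairs at this smallest p cannot reach an adjusted p under 0.05 among 36. The adjusted p therefore cannot decide whether *CDC20* differs from the others. None of the 28 pairs without *CDC20* was separated. The 8 separated pairs share the same *CDC20* signals, so they are not 8 independent observations. The share of separated ratios over pairs of other genes was not computed. Of all tested genes taken singly, 29.6% had all 4 gentamicin signals below all 4 control signals. Within groups, gentamicin 6 had the lowest signal of its group for 5 of the 9 genes and gentamicin 7 the highest for 5. In controls, control 1 was lowest for 5 and control 3 highest for 4. Their part in the differences was not tested beyond leaving each out.

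The 5 tested genes outside the lists whose log2 signals over the 8 arrays were most like those of *CDC20*, by Pearson correlation, were *PXR1*, *NOC4*, *PTR2*, *SUT1* and *YTM1*, with r from 0.996 to 0.998. The 8 arrays form 2 groups, so r mostly reflects the group difference, and 14.5% of 4431 genes had r above 0.9. *PXR1*, *NOC4* and *YTM1* act in ribosome assembly and were 2.16-fold, 2.35-fold and 2.43-fold lower with gentamicin. *PTR2*, a peptide transporter, was 1.84-fold lower and *SUT1*, a transcription factor of sterol uptake, 1.85-fold lower (limma adjusted p from 3.67e-06 to 2.37e-05 over the 5).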

How the data were processed

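Transcript levels were measured on 8 one-colour Affymetrix yeast arrays. The deposited values are intensities per probe set, made by the authors with MAS5 per the submitters' processing notes, with version and genome build not given in the sources used here. Their mean without the lowest and highest 2% was near 1001 on every array. Probe sets were named through the platform annotation and the R64 gene table by identifier, and all 6504 that list 1 gene matched. Those listing several genes (328) or none (2443) and the 60 control probe sets were not named. The brightest probe set stood for a gene. Intensities were converted to log2, the lowest 20% of 5656 genes by mean left out, and gentamicin minus control fitted in R 4.3.3 by limma 3.58.1 (lmFit, eBayes with a variance trend, Benjamini-Hochberg over 4524 genes, a call at 0.05). The number of arrays limits the precision. Tested on simulated data with the spread of these arrays (gentamicin minus control, 4524 genes), the fit called 71% of genes changed 1.5-fold and 91% of those changed 2-fold with the correct sign. In the simulation 100 genes changed by each fold, 168 genes were called in all, and no shift common to an array was included. The real data gave 1414 lower and 702 higher calls, so these percentages do not carry over directly.

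The 9 genes, the lists and the alternatives were chosen with earlier results of these data known. Named genes are all 9 with each probe set, up to 4 called genes per list and direction with the smallest adjusted p, all genes of lists of up to 6, the 5 genes most like *CDC20*, and control probe sets. *TEM1*, *CDC15*, *CLB1*, *CLB2*, *AXL1*, *SIC1*, *CLN1* and *CLN2* were named after their values were seen, as partners or phase markers, and the pairwise ratio tests were added then. The untested *SLI15*, *PDS1*, *BUB1* and *LTE1* were also named after their values were seen, for the size or sign of their differences. *BUB2* and *KIN4* were likewise named after their values were seen, as antagonists of exit. Lists were described by counts and medians, with no set test. As alternatives, array medians were aligned or arrays quantile-normalized, 8.17 was added before log2, the filter was dropped or raised to 40%, the variance trend was dropped, arrays were weighted, probe sets of a gene were combined by their median, each array was left out, and the threshold was 0.01; leaving out arrays without a filter was added after the data were seen.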

Additional observations from a re-analysis of the deposited data

Results flagged for a closer look

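In 1 of 28 groups examined (the 14 probe sets, each in the gentamicin and the control group), a single array lay far from the other 3: *DBF2* on gentamicin 6 had a signal of 153, against 191 to 192 on the other gentamicin arrays. The gap was 0.974 of the group's range, above Dixon's 95% critical value for 4 samples. Chance gives such a gap in about 1 of 20 groups. Gentamicin 6 was the lowest array of its group for 5 of the 9 genes.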

How the results depend on the processing

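Over 17 alternatives, *CDC20* kept its direction and its call in all 17 (log2 differences from -1.18 to -0.96). *ALK1* kept both in 15 of 16, *CDC5* in 10 of 17, *BUD4* in 8 of 15 and *BUD8* in 9 of 17, and none of the 6 tested genes changed sign. The number of the 9 genes called lower was 1 with quantile normalization, 2 with aligned array medians, 3 with the lowest 40% left out (4 tested), 2 at a threshold of 0.01, and from 2 to 5 on leaving out single arrays. It was 6 with array weights (6 tested) and 6 without a filter (9 tested). With the median over probe sets it was 5 as in the deposited setting, but *DBF2* was tested and called (adjusted p = 0.034) in place of *BUD4*, which fell below the filter. At 0.01, *CDC20* and *ALK1* were called. The median log2 difference of the 9 genes, -0.30 as deposited, was -0.083 with quantile normalization and -0.16 with aligned medians, and from -0.35 to -0.28 on leaving out single arrays. Over all genes, 1414 were called lower and 702 higher as deposited. Quantile normalization gave 894 lower and 850 higher, aligned medians 799 and 1079, and a threshold of 0.01 915 lower; leaving out single arrays gave from 1209 to 1360 lower. No paired analysis was possible because the groups share no replicate numbers. Dim signal limits *SWI5*, *HST3*, *DBF2* and 4 probe sets of *BUD4*.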
